A study of Homo sapiens with 9 samples.

Results

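The genes of MHC class I antigen presentation were examined in H1975 cells, an established human lung adenocarcinoma line, as a set of 9 members matched by symbol among the 61544 genes counted in each library. The members were the heavy chains HLA-B, HLA-C and HLA-E, the invariant light chain B2M, the transporter subunits TAP1 and TAP2, the loading chaperone TAPBP (tapasin) and the immunoproteasome subunits PSMB8 and PSMB9. Of these, 8 passed the filter on low counts and TAP2 did not.

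MHC class I molecules carry fragments of intracellular proteins to the cell surface, where cytotoxic T cells inspect them. The proteasome cuts proteins into peptides, the TAP1 and TAP2 heterodimer pumps the peptides into the endoplasmic reticulum (ER), and tapasin holds an empty heavy chain, paired with B2M, beside the transporter until a peptide binds. PSMB8 and PSMB9 replace the constitutive catalytic subunits PSMB5 and PSMB6 in the immunoproteasome. In epithelial cells these genes are known as targets of interferon signaling and of the coactivator NLRC5.

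All cells received si78, an siRNA against endogenous GRP78, an ER chaperone encoded by HSPA5, for 24 h and were then transfected for 48 h. The vector group received pcDNA3, the WT group received FLAG-tagged GRP78 (F-78), and the NLS Mut group received the same protein with a mutated nuclear localization signal, with 3 RNA-Seq libraries in each of the 3 groups. No sample without si78 was analysed here, so the comparisons address what adding back each form of GRP78 did in depleted cells. The comparison of WT with NLS Mut sets the F-78 forms against each other, at HSPA5 levels that also differed on average. The counts do not separate plasmid from endogenous transcripts, and the sources used here do not state that the libraries came from separate cultures, so p-values measure the spread between these libraries, which may be technical.

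HSPA5 stood at 359 to 391 CPM (reads scaled to a common library total) in the vector libraries, at 5031 to 6145 CPM in the WT libraries and at 4765 to 5156 CPM in the NLS Mut libraries. The libraries held 17671055 to 27476298 counted reads. The summed level of 5 epithelial markers was 3231 to 3656 CPM in vector, 3489 to 3617 CPM in WT and 3114 to 3234 CPM in NLS Mut, which lay below WT and overlapped vector. Of these markers CDH1 was called lower in NLS Mut than in vector (-0.25, adjusted p = 0.0437), and CDH1 and KRT19 were called higher in WT than in NLS Mut (0.27 and 0.23, adjusted p = 0.0364 and 0.0438). The summed level of 5 immune cell markers was 6.75 to 10.8 CPM with 1 of them at 0 in all 9 libraries. Vector replicate 1 differed from the other vector libraries by a chi-square per degree of freedom of 11.5 and 12.7, and they from each other by 4.42. The WT pairs differed by 7.03 to 10.2 and the NLS Mut pairs by 3.55 to 4.73. Of the 9 libraries left out singly, vector replicate 1 raised the number of genes called against vector most. The dependence on base composition also differed, with a log2 change per 10 percentage points of GC content of -0.043 in vector replicate 1 and of 0.10 and 0.11 in vector replicates 2 and 3, and of -0.075 to 0.031 in the 6 F-78 libraries. Results are therefore given with and without that library and with a correction for GC content and length.

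All members but B2M lie on chromosome 6, and their positions follow GENCODE release 29 (GRCh38). The ids are those of the counted genes and were matched to that release without their version numbers. The sources used here do not state the annotation behind the counts, so positions, lengths and overlaps may differ from those used in counting. HLA-E (ENSG00000204592.9) lies on the plus strand from 30489467 to 30494205 and HLA-C (ENSG00000204525.18) on the minus strand from 31268749 to 31272130. HLA-B (ENSG00000234745.14) is annotated on the minus strand from 31269491 to 31357188, a span that reaches into HLA-C, with which it shares 35 exonic bases. TAP2 (ENSG00000204267.17, 32821833 to 32838780), PSMB8 (ENSG00000204264.12, 32840717 to 32844703) and TAP1 (ENSG00000168394.12, 32845209 to 32853978) follow each other on the minus strand. PSMB9 (ENSG00000240065.8, 32844136 to 32859585) lies on the plus strand over the same stretch, and TAPBP (ENSG00000231925.13, 33299694 to 33314387) on the minus strand beyond it. B2M (ENSG00000166710.23) lies on the plus strand of chromosome 15 from 44711487 to 44718877. The GC content of the longest annotated transcript of each tested member ran from 40.6% in B2M to 62.7% in HLA-C. Between them lay PSMB9 (46.9%), PSMB8 (53.8%), HLA-E (54.8%), TAP1 (57.5%), TAPBP (57.6%) and HLA-B (59.0%).

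Promoter windows of 300 bases, from 250 bases before to 50 bases after an annotated start, were taken from RefSeq (GRCh38.p14) for 8 of the 9 members, HLA-E having no entry in the table used. The 4 windows below are shown for a heavy chain, the light chain, a transporter subunit and tapasin. Capitals mark matches to the interferon response element letters GAAANNGAAA in B2M, TAP1 and TAPBP, where a pair of overlapping matches runs together, and to the cAMP response element letters TGACG in HLA-B.
HLA-B, chr6:31357130-31357429, minus strand: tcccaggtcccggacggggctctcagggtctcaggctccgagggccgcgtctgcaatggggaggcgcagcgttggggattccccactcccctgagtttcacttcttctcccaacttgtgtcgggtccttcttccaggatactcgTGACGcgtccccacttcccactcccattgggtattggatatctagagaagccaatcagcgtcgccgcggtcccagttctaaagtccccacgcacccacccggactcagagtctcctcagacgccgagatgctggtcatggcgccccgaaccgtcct
B2M, chr15:44711267-44711566, plus strand: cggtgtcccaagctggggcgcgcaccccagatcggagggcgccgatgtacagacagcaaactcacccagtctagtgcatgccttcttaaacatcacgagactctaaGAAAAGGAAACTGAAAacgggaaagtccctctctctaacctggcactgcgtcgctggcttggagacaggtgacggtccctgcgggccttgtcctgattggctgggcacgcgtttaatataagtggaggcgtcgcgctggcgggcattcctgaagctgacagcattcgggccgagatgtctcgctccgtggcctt
TAP1, chr6:32853655-32853954, minus strand: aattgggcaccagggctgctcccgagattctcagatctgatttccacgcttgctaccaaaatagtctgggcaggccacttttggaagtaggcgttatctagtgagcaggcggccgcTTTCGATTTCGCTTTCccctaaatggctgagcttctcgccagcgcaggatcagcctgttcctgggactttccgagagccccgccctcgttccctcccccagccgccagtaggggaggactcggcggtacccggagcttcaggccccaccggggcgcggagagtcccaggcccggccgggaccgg
TAPBP, chr6:33314029-33314328, minus strand: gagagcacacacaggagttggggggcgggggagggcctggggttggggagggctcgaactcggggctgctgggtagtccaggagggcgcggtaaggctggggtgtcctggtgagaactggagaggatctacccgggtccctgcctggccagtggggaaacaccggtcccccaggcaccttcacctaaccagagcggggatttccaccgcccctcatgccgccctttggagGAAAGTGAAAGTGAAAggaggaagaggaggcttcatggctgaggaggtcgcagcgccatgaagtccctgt

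The letters GAAANNGAAA, searched on both strands, were found in 5 of the 10 member windows (TAP1, TAP2, TAPBP, B2M and 1 of 2 starts of PSMB8) and in 3.57% of all 35116 windows. Sites that differ from these letters were not searched, so a window without a match may still hold a variant element. In TAPBP the first match began 20 bases before the start, in TAP1 134 bases and in B2M 144 bases before it. The letters TGACG were found in 6 member windows and in 24.6% of all windows. In HLA-B and HLA-C they began 106 and 105 bases before the start. The E-box letters CANNTG, a binding site of helix-loop-helix factors, were found in 4 member windows (both starts of PSMB8, PSMB9 and B2M) and in 68.7% of all windows. The windows of TAP1 and PSMB9, which are transcribed away from each other, shared 13 bases. In B2M the TGACG match overlapped the E-box match, and in PSMB9 so did the reverse-strand TGACG match and an E-box.

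In CPM per kilobase of exonic length (RPKM), B2M (mean 154) and HLA-B (141) were the most abundant members over the 9 libraries and their ranges overlapped, 145 to 170 against 124 to 152. HLA-E followed at 40.7 RPKM, without overlap with either neighbor. PSMB9 (26.6) and PSMB8 (23.2) overlapped each other. TAP1 (17.99), HLA-C (17.4) and TAPBP (15.4) formed the lowest group, each overlapping the next. The lengths count every annotated exonic base, so a gene with long rare transcripts is placed too low.

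TAP2 had 1 read in all 9 libraries together, in vector replicate 2, while TAP1, its partner in the transporter, had 18040. The floor of 3 counts corresponds to 0.109 to 0.170 CPM, so no group difference was detectable. In GENCODE release 29 a same-strand read-through gene (ENSG00000250264) shares 2064 of the 6390 exonic bases of TAP2, or 32.3%, and reads on more than 1 gene, which made up 9.12% to 9.81% of a library, were counted on neither. That gene had 0 reads. Whether this overlap set the count of TAP2 was not tested, and its level is uncertain here.

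No member passed the edgeR test in any comparison. In WT against vector, where 104 of 18653 tested genes (0.558%) were called, all 8 tested members had negative fold changes, with a median log2 fold change of -0.14 against -0.0023 over all tested genes. Against 6.54% of all tested genes lower and 6.53% higher without overlap, 5 members (HLA-B, HLA-C, HLA-E, B2M and PSMB9) lay lower in every WT library than in every vector library. NLS Mut against vector gave a similar picture from the same vector libraries, which makes the comparisons dependent: of all genes 0.793% were called, no member was, the members' median was -0.12 against -0.0017, and 5 members (HLA-B, HLA-C, HLA-E, B2M and TAPBP) did not overlap, against 8.82% of genes lower and 9.28% higher. At an unadjusted p under 0.05 stood 5 members in each of these comparisons, of 2186 and 2268 genes in all.

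**Figure D1:**
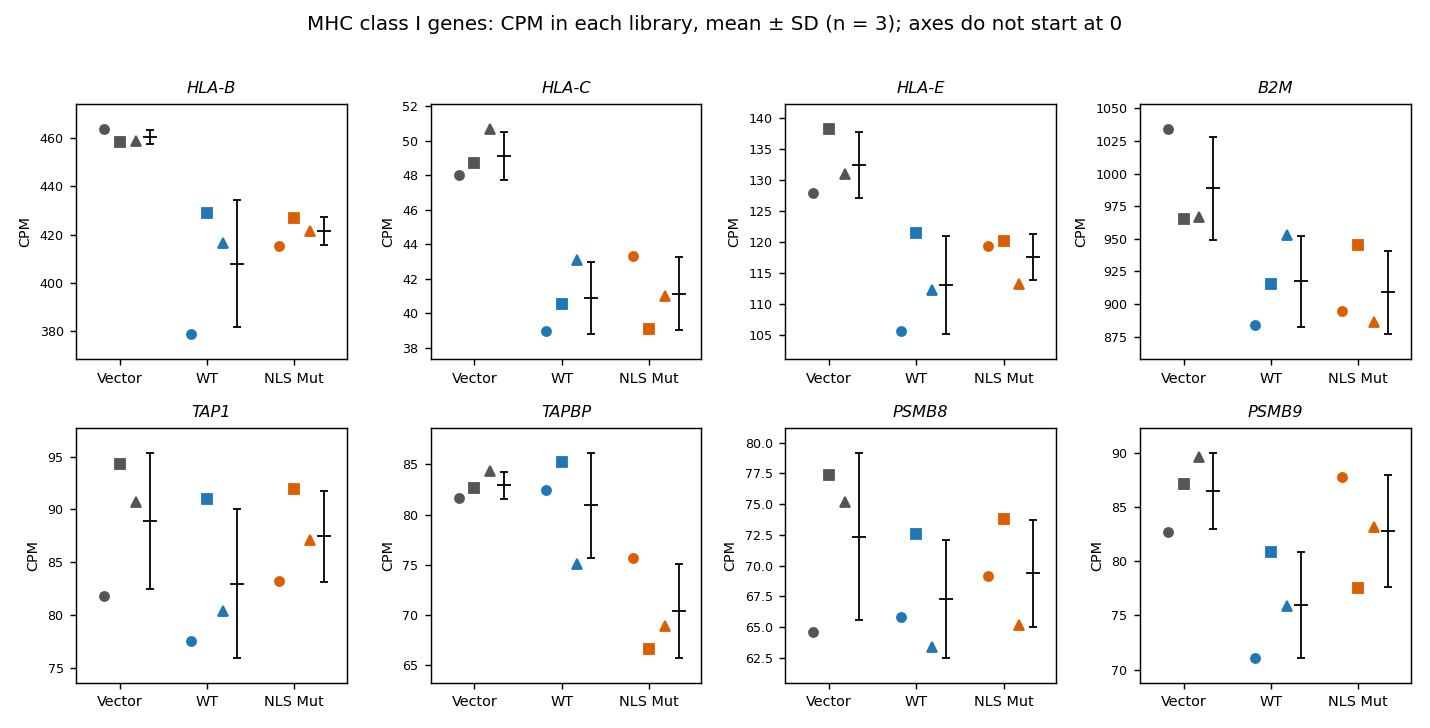
CPM of the 8 tested genes in each of the 9 libraries, by group (circles, squares and triangles are replicates 1, 2 and 3, and the black bar is the mean ± SD, n = 3); axes do not start at 0. HLA-B, HLA-C, HLA-E and B2M lie lower in every F-78 library than in every vector library, whereas TAPBP is lower in every NLS Mut library than in every vector library and overlaps vector in WT.

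The classical heavy chains HLA-B and HLA-C present peptides to T cells. HLA-B was counted at 464, 458 and 459 CPM in vector replicates 1 to 3, at 379, 429 and 417 CPM in WT and at 415, 427 and 421 CPM in NLS Mut. The vector libraries lay close together and above all 6 F-78 libraries. The log2 fold change was -0.17 (SE 0.053, adjusted p = 0.149) for WT and -0.13 (SE 0.053, adjusted p = 0.303) for NLS Mut. HLA-C, the least abundant heavy chain among the members, was counted at 47.997, 48.7 and 50.7 CPM in vector, at 39.0, 40.6 and 43.1 CPM in WT and at 43.3, 39.1 and 41.0 CPM in NLS Mut. Again both F-78 groups lay below the vector group and overlapped each other. Its log2 fold changes were -0.27 (SE 0.084, adjusted p = 0.161) and -0.26 (SE 0.084, adjusted p = 0.164).

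HLA-E, a nonclassical heavy chain that presents leader peptides of other class I molecules to receptors of natural killer cells, was counted at 128, 138 and 131 CPM in vector, at 106, 121 and 112 CPM in WT and at 119, 120 and 113 CPM in NLS Mut. Its lowest vector library was above its highest F-78 library. The log2 fold changes were -0.23 (SE 0.066, adjusted p = 0.116) and -0.17 (SE 0.066, adjusted p = 0.252). B2M, without which heavy chains do not reach the surface, was counted at 1034, 966 and 967 CPM in vector, at 884, 915 and 953 CPM in WT and at 895, 946 and 886 CPM in NLS Mut. The groups did not overlap, but the highest WT library was close to the lowest vector library. The log2 fold changes were -0.11 (SE 0.048, adjusted p = 0.361) and -0.12 (SE 0.048, adjusted p = 0.272).

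TAPBP was the member in which the F-78 groups diverged most. It was counted at 81.7, 82.7 and 84.3 CPM in vector, at 82.5, 85.2 and 75.1 CPM in WT and at 75.6, 66.6 and 68.9 CPM in NLS Mut. Every NLS Mut library was below every vector library, while the WT libraries overlapped both groups. The log2 fold change was -0.24 (SE 0.073, adjusted p = 0.134) for NLS Mut and -0.034 (SE 0.073, adjusted p = 0.909) for WT. TAP1 was counted at 81.8, 94.3 and 90.7 CPM in vector, at 77.6, 91.0 and 80.4 CPM in WT and at 83.2, 91.9 and 87.1 CPM in NLS Mut, and all groups overlapped. Its log2 fold changes were -0.10 (SE 0.075, adjusted p = 0.659) and -0.025 (SE 0.075, adjusted p = 0.945).

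The immunoproteasome subunit PSMB9 was counted at 82.7, 87.1 and 89.7 CPM in vector, at 71.1, 80.9 and 75.8 CPM in WT and at 87.8, 77.5 and 83.2 CPM in NLS Mut. The WT libraries lay below the vector libraries and the NLS Mut libraries overlapped both. The log2 fold changes were -0.19 (SE 0.073, adjusted p = 0.282) and -0.064 (SE 0.073, adjusted p = 0.788). PSMB8 overlapped in all groups, at 64.6, 77.4 and 75.1 CPM in vector, 65.8, 72.6 and 63.3 CPM in WT and 69.2, 73.8 and 65.1 CPM in NLS Mut. The log2 fold changes of PSMB8 were -0.11 (SE 0.081, adjusted p = 0.665) and -0.061 (SE 0.081, adjusted p = 0.832).

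Between WT and NLS Mut, 0.504% of genes were called and no member was, by edgeR or by DESeq2, the members' median log2 fold change was -0.046, and no member separated the groups (8.25% of all genes lay higher and 9.42% lower without overlap). Of the 8 members, 6 had negative and 2 positive fold changes, and 1, TAPBP, had an unadjusted p under 0.05, of 2155 genes in all. TAPBP was 0.20 higher in WT on the log2 scale (SE 0.073, 95% interval 0.052 to 0.35, adjusted p = 0.24), and the groups overlapped through 1 WT library at 75.1 CPM. The epithelial markers CDH1 and KRT19 were called higher in the same direction. HSPA5 was higher on average but was not called (0.19, adjusted p = 0.0795), and its groups overlapped. The part of these genes in the value of TAPBP was not tested. PSMB9 differed by -0.12 (95% interval -0.27 to 0.026, adjusted p = 0.548). For HLA-B the interval was -0.15 to 0.062, for HLA-C -0.18 to 0.16, for HLA-E -0.19 to 0.079 and for B2M -0.085 to 0.11, which leaves room for differences in either direction.

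**Figure D2:**
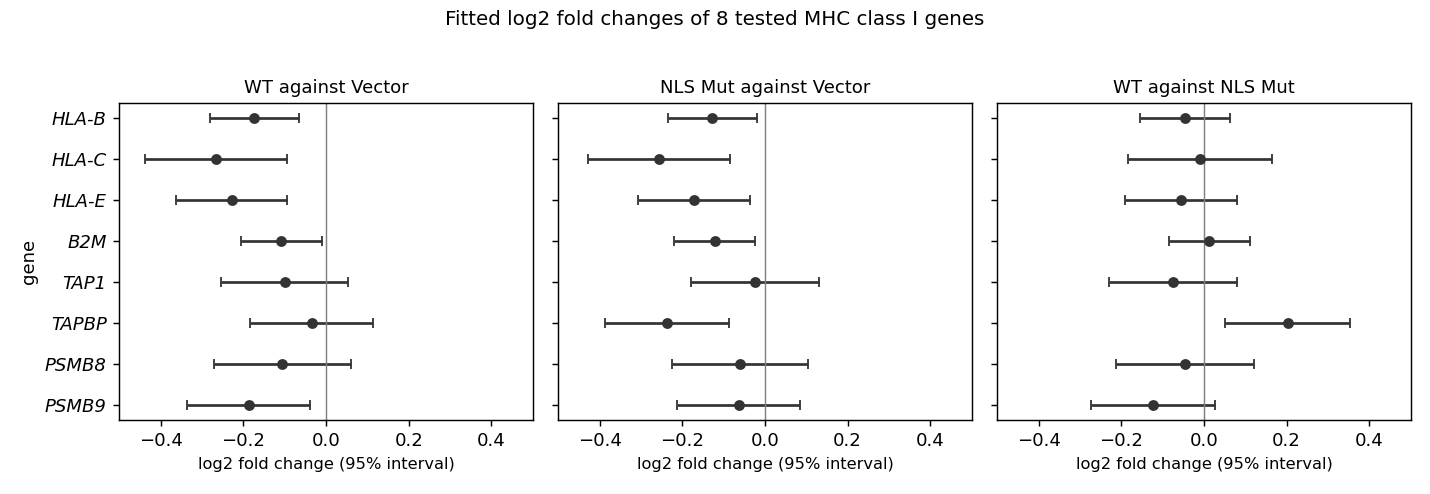
Log2 fold changes from edgeR for the 8 tested genes in 3 comparisons (points, fitted values; bars, unadjusted 95% intervals). The intervals of the 3 heavy chains and B2M lie below 0 in both comparisons with vector and span 0 between the F-78 groups, where TAPBP alone lies above 0; no adjusted p is under 0.05.

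The calls depended on single libraries, on the tool and on the correction for base composition. Without vector replicate 1, 3 members were called lower in WT (HLA-B at -0.17, adjusted p = 0.0275; HLA-C at -0.28, adjusted p = 0.0496; HLA-E at -0.25, adjusted p = 0.0113), but 6.33% of all genes were then called. Under the same setting TAPBP was called lower in NLS Mut (-0.25, adjusted p = 0.038), where 5.05% of all genes were called. The epithelial markers KRT8, KRT18, KRT19 and CDH1 were called lower in NLS Mut in that setting too, and their part in the value of TAPBP was not tested. DESeq2 with all libraries called HLA-E in WT (adjusted p = 0.0432, 1.4% of all genes called) and HLA-C and TAPBP in NLS Mut (adjusted p = 0.0467 and 0.04, 2.31% called). Without WT replicate 2, HLA-E was called in WT (-0.28, adjusted p = 0.0383), where 1.64% of all genes were called.

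Correction for GC content and length moved the members in opposite directions: in both comparisons the 6 with a GC content of 53.8% or more moved upward, and B2M and PSMB9 moved farther below 0. The fold change of HLA-C shrank to -0.13 in both comparisons (adjusted p = 0.586 and 0.58), and that of HLA-B to -0.093 and -0.046 (adjusted p = 0.454 and 0.786). B2M, with the lowest GC content, moved to -0.20 in WT (adjusted p = 0.0116, 0.775% of all genes called) and to -0.21 in NLS Mut (adjusted p = 0.00556, 1.24% called), and was the member called in each. With that correction and vector replicate 1 left out together, a setting chosen after seeing the data, HLA-B was at -0.035 and 0.0080, HLA-C at -0.070 and -0.072 and B2M at -0.21 and -0.22 (adjusted p = 0.0025 and 0.00174), and PSMB9 was also called in WT (-0.25, adjusted p = 0.0498). In that setting 2.09% of all genes were called in WT and 1.19% in NLS Mut. Before any correction vector replicate 1 had HLA-B, HLA-C and HLA-E at 464, 47.997 and 128 CPM and a GC dependence within the range of the F-78 libraries. The part of GC dependence in the fold changes was not tested beyond these fits.

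**Figure D3:**
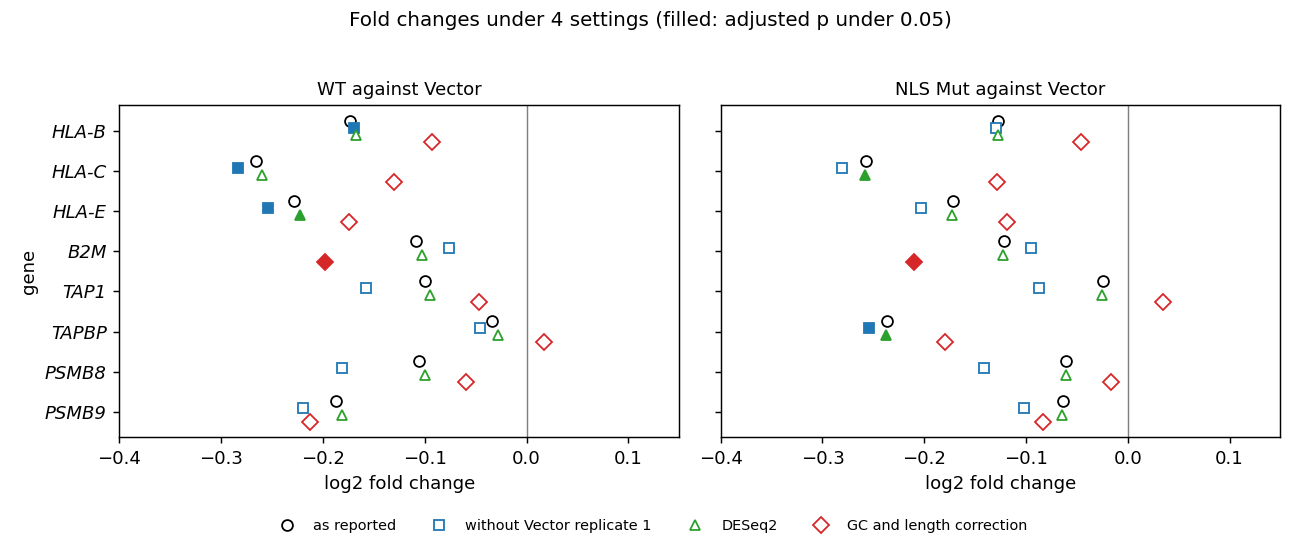
Log2 fold changes of the 8 tested genes against vector under 4 settings (filled symbols, adjusted p under 0.05). Red diamonds, with GC content and length corrected, lie nearer 0 than the reported values for HLA-B and HLA-C and farther from 0 for B2M.

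The biological coefficient of variation of the tested members was 5.19% to 6.75%, against a median of 11.2% over all tested genes. These members lay at percentiles 71.4 to 99.6 of CPM among tested genes, and genes of similar level were not compared. Over the 9 libraries, which share groups and library composition, Pearson r between log2 CPM of members was highest for HLA-B and HLA-E (0.92). TAP1 and PSMB8 followed at 0.86, and TAP1 and TAPBP were lowest at -0.040. After group means were removed, HLA-B with HLA-E stood at 0.70 and TAP1 with PSMB8 at 0.85. B2M with TAPBP was then lowest at -0.61. The genes whose log2 CPM was most like the mean of the tested members, among 15037 genes of at least 1 CPM over the 9 libraries, were RHOB (r = 0.966), WBP2 (0.963), LIPE (0.962), PLPPR2 (0.961) and ENSG00000272512 (0.961).

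Whether subunits shifted against their partners was examined as the ratio of counts within a library. The log2 ratio of PSMB9 to PSMB6, the constitutive subunit it replaces, was -0.14, -0.37 and -0.26 in vector, -0.64, -0.46 and -0.47 in WT and -0.26, -0.55 and -0.22 in NLS Mut. WT lay below vector without overlap, by 0.26 on the log2 scale, with an exact two-sided permutation p = 0.1, the smallest that 3 against 3 allows. The log2 ratio of PSMB8 to PSMB5 was -0.60 ± 0.055 in vector, -0.66 ± 0.085 in WT and -0.62 ± 0.13 in NLS Mut (SD, n = 3, exact permutation p = 0.5 and 0.9 against vector). The 3 heavy chains together against B2M stood at -0.62 ± 0.061, -0.71 ± 0.067 and -0.65 ± 0.037 (SD, n = 3, exact permutation p = 0.2 and 0.6). The other exact p-values, between WT and NLS Mut, were 0.3, 0.8 and 0.2 for PSMB9, PSMB8 and the heavy chains, and none of the 9 tests could pass 0.05.

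**Figure D4:**
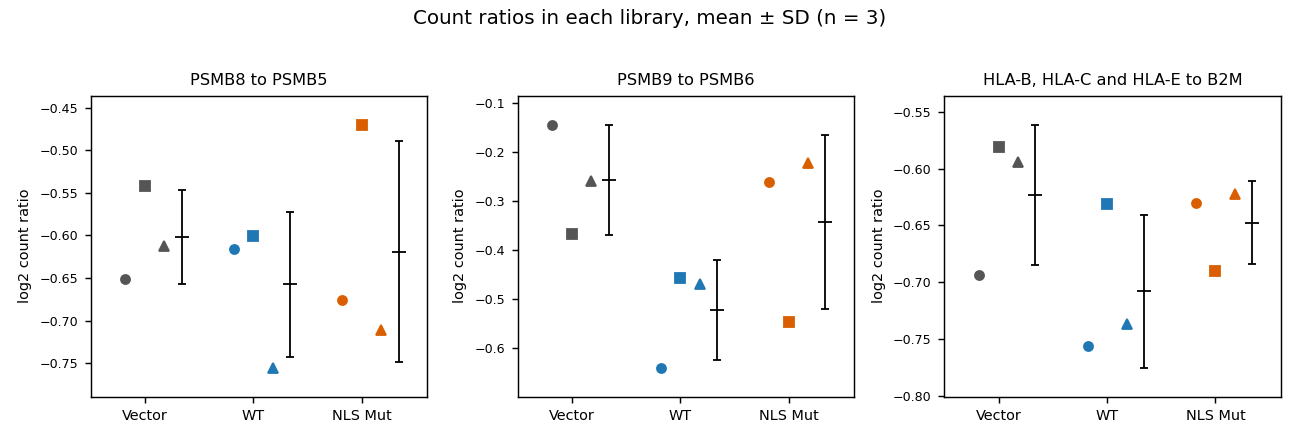
Log2 ratios of counts within each of the 9 libraries, by group (circles, squares and triangles are replicates 1, 2 and 3; black bar, mean ± SD, n = 3); axes do not start at 0. The ratio of PSMB9 to PSMB6 is lower in all 3 WT libraries than in the vector libraries, and the other ratios overlap.

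Around the members, 59 genes of the pathway in 7 lists were examined. The filter left 54 of them. By edgeR none was called higher in any comparison and none in either direction between WT and NLS Mut. In that comparison 13 had an unadjusted p under 0.05, against 2155 of all 18653 tested genes. There DESeq2 called 1, ERAP1, higher in WT, and 316 of all tested genes in either direction. Against vector edgeR called 2 lower in WT (MICB and RELB) and 3 lower in NLS Mut (CALR, TAPBPL and CD74). Over all tested genes edgeR called 0.558% and 0.793% in either direction. DESeq2 called 2 lower in WT (RELB and NFKB2) and gave MICB no adjusted p. It called 6 lower in NLS Mut (CALR, PDIA3, TAPBPL, HLA-F, CD74 and CTSS). Over all tested genes DESeq2 called 1.4% in WT and 2.31% in NLS Mut. The median log2 fold change of a list ran from -0.15 (class I-like molecules) to 0.12 (interferon receptor signaling) in WT against vector, from -0.21 (class II) to 0.00093 (interferon receptor signaling) in NLS Mut against vector and from -0.058 (transcription regulators) to 0.14 (class II) between WT and NLS Mut. Of 6 trimming and loading partners, 2 fell in NLS Mut against vector: CALR, the ER lectin calreticulin, by 0.23 on the log2 scale (adjusted p = 0.0183), and TAPBPL, a tapasin-related peptide editor, by 0.51 (adjusted p = 0.0245). In WT against vector CALR stood at -0.18 (adjusted p = 0.107) and TAPBPL at -0.20 (adjusted p = 0.52). Neither was called between WT and NLS Mut (0.055 and 0.31, adjusted p = 0.738 and 0.247). TAPBPL was counted at 25.2 to 31.4 CPM in vector, 22.7 to 26.1 CPM in WT and 18.2 to 22.2 CPM in NLS Mut, and CALR at 1861 to 2183, 1804 to 1876 and 1727 to 1821 CPM. PDIA3, which joins calreticulin and tapasin in the loading complex, stood at -0.17 in NLS Mut (adjusted p = 0.0816). The epithelial marker CDH1 was lower in the NLS Mut libraries too, and its part in these values and in that of CD74 was not tested. The peptide trimming enzymes ERAP1 and ERAP2 stood at 0.30 (adjusted p = 0.122) and 0.13 (adjusted p = 0.482) in WT against NLS Mut.

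Among 8 tested class I-like molecules, MICB, a ligand of the natural killer cell receptor NKG2D, fell by 1.12 in WT against vector (adjusted p = 0.0387). It was counted at 3.88, 4.67 and 4.07 CPM in vector and at 1.85, 2.20 and 1.74 CPM in WT. In NLS Mut it was counted at 3.15, 4.12 and 3.18 CPM, so WT lay below both other groups. Of all tested genes, 6.54% lay lower without overlap in WT against vector and 9.42% in WT against NLS Mut. Between WT and NLS Mut MICB was not called (-0.85, adjusted p = 0.144). HLA-F, a nonclassical heavy chain, stood at -0.41 (adjusted p = 0.161) and -0.50 (adjusted p = 0.0625) against vector in WT and NLS Mut. Of 15 transcription regulators of class I genes, RELB, a subunit of the noncanonical NF-κB pathway, fell by 0.56 in WT (adjusted p = 0.0158), from 25.8 to 31.6 CPM in vector to 17.8 to 21.7 CPM. In NLS Mut RELB was counted at 21.8 to 25.5 CPM and stood at -0.28 against vector (adjusted p = 0.281). It was not called between WT and NLS Mut (-0.28, adjusted p = 0.318). NLRC5 stood at -0.19 (adjusted p = 0.188) and -0.14 (adjusted p = 0.372), and IRF1, an interferon-responsive factor, at 0.069 and -0.14 (adjusted p = 0.797 and 0.485).

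None of 10 tested genes of interferon receptor signaling was called by edgeR or DESeq2 in any comparison. An unadjusted p under 0.05 was found for 5, 1 and 2 of them in WT against vector, NLS Mut against vector and WT against NLS Mut. Over all 18653 tested genes the numbers were 2186, 2268 and 2155. Of 8 tested class II genes, CD74, the invariant chain, fell by 0.26 in NLS Mut (adjusted p = 0.0178). CD74 stood at -0.11 in WT against vector (adjusted p = 0.467) and was not called between WT and NLS Mut (0.16, adjusted p = 0.23). PSMB10, the remaining inducible catalytic subunit, stood at -0.81 in WT (adjusted p = 0.0965) and -0.45 in NLS Mut (adjusted p = 0.411), and the constitutive subunits PSMB5, PSMB6 and PSMB7 at -0.070 to 0.070 in both. Calls of CALR, TAPBPL, CD74, RELB and MICB were lost when certain single libraries were left out. Each was lost without vector replicate 2 (adjusted p = 0.135, 0.11, 0.0691, 0.0799 and 0.242) and without vector replicate 3 (0.105, 0.199, 0.119, 0.184 and 0.184). RELB and MICB were also lost without WT replicate 1 (adjusted p = 0.157 and 0.202) or 3 (0.112 and 0.157), and MICB without any of the NLS Mut libraries (0.056 to 0.06). CALR, TAPBPL and CD74 were lost without NLS Mut replicate 1 (adjusted p = 0.1, 0.122 and 0.108), TAPBPL without NLS Mut replicate 2 (0.234), and CALR and CD74 without NLS Mut replicate 3 (0.116 and 0.148). RELB was at -0.39 with GC content and length corrected (adjusted p = 0.057), and with only the vector and WT groups in the fit RELB (0.0582) and MICB (0.12) were not called.

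**Figure D5:**
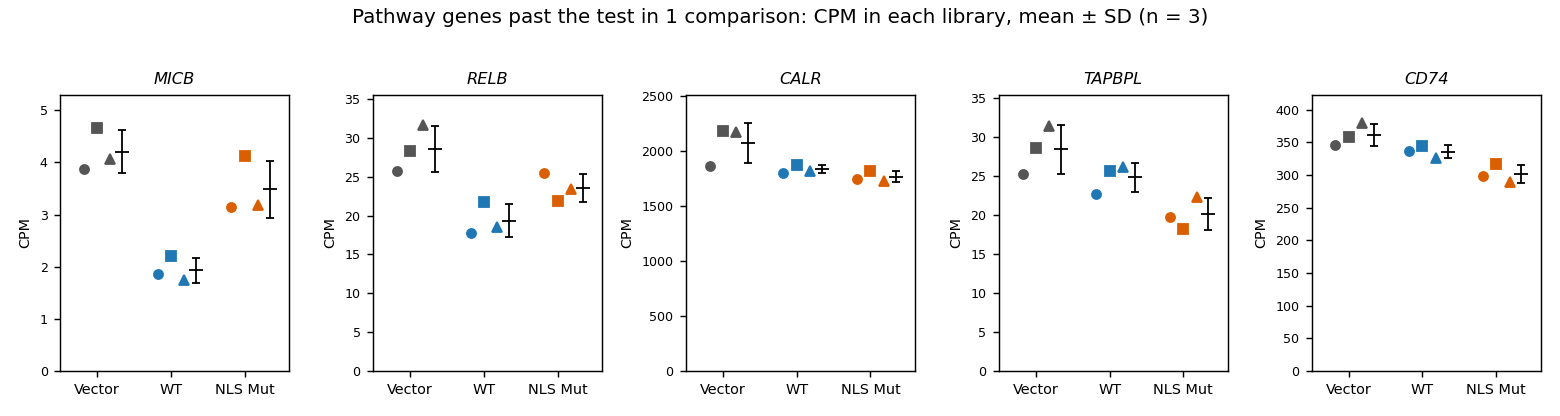
CPM of the 5 pathway genes called in 1 comparison, in each of the 9 libraries by group (circles, squares and triangles are replicates 1, 2 and 3; black bar, mean ± SD, n = 3); axes start at 0. MICB is at 1.74 to 2.20 CPM in WT, below both other groups but not called against NLS Mut. CALR, TAPBPL and CD74 are lowest on average in NLS Mut.

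Without vector replicate 1 more of the surrounding genes were called, and more of all tested genes. The share of all genes was 6.33% in WT against vector and 5.05% in NLS Mut against vector. Between WT and NLS Mut 388 of 19857 tested genes were called. In WT against vector these included PSMB10, CALR, RELB, NFKB2, TYK2, HLA-F and MICB lower and ERAP2 and IFNGR1 higher. In NLS Mut they included PSMB10, CALR, PDIA3, TAPBPL, TYK2, HLA-F and CD74 lower, and 4 of 5 epithelial markers were also lower. Between WT and NLS Mut, ERAP1 was called higher, beside 3 of 5 epithelial markers. The part of the epithelial markers in these values was not tested.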

How the data were processed

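Total RNA of H1975 cells was sequenced in 9 libraries. The authors deposited raw counts of reads per gene, in 3 columns per library for unstranded and strand-specific counting, without normalization; the submitters' processing notes name STAR 2.7.9a, DESeq2 1.36.0 and GRCh38.p14. The unstranded column was used. The 9 members, the lists and the tests were chosen with earlier results of these data known.

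Counts were normalized by TMM (factors 0.989 to 1.02), filtered with filterByExpr and fitted with edgeR 4.0.16 (quasi-likelihood, R 4.3.3), all 9 libraries in 1 model. P-values were adjusted over all 18653 genes by the Benjamini-Hochberg method with a threshold of 0.05; intervals are 95%. CPM used TMM library sizes. Summary lines that name no gene (27.6% to 30.7% of reads) were left out. Symbols were matched for 61445 of 61544 genes, and GENCODE release 29 gave length and GC content for 97.5% of tested genes. Named genes were all members, HSPA5, the NLRC5, IRF1, PSMB5, PSMB6, PSMB7, PSMB10, ERAP1, ERAP2, CALR and PDIA3 genes and every called gene of the lists, except 1 gene that is not reported here; HLA-F, the genes called by DESeq2 alone or without vector replicate 1 and TAP2's read-through neighbor were named after their values were seen. The constitutive and inducible ratios were tested by exact permutation. Procedures were tested on simulated data. Alternatives were DESeq2 1.42.0, other normalizations and filters, both strands summed, only the groups compared, a replicate block, GC and length correction (loess, span 0.3) and leaving out each library. Figures were drawn with matplotlib.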

Additional observations from a re-analysis of the deposited data

How the results depend on the processing

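The members' reported fold changes were under 0.3 in size on the log2 scale, with 3 libraries per group. The members' median log2 fold change moved by less than 0.070, the spread between replicates, under every alternative run. The members called numbered 1 with DESeq2 and 1 with GC content and length corrected in WT against vector, 2 and 1 in NLS Mut against vector, and 2 and 1 with that correction and vector replicate 1 left out together; none was called between the F-78 groups under any alternative. Leaving out single libraries gave 0 to 3 members in WT and 0 to 1 in NLS Mut.

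Genes called over the whole table, in the order WT against vector, NLS Mut against vector and WT against NLS Mut, were 262, 430 and 316 with DESeq2, 289, 240 and 225 without a filter, 26, 151 and 315 with only the groups compared, 141, 225 and 420 with GC content and length corrected, and 380, 217 and 606 with that correction and vector replicate 1 left out. At least 10 counts in every library gave 150 in the last comparison. Leaving out single libraries gave 19 to 1256, 33 to 1002 and 27 to 388. The causes of these shifts were not tested.

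With the replicate number as a block, 232, 230 and 212 genes and 0 members were called. Same-numbered libraries did not deviate together (r = -0.024 to 0.059), so the numbers were not taken to pair them.

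Signs turned for members near 0. With GC content and length corrected, TAPBP was at 0.017 in WT and TAP1 at 0.034 in NLS Mut; with vector replicate 1 also left out, TAPBP was at 0.039, and HLA-B at 0.0080 and TAP1 at 0.0047 in NLS Mut, and HLA-C at 0.0027 between the F-78 groups. With both strand columns summed HLA-C was at 0.0010 there. Leaving out single libraries gave -0.069 to 0.020 for TAPBP in WT, -0.087 to 0.016 for TAP1 in NLS Mut and, between the F-78 groups, -0.075 to 0.011 for HLA-B, -0.041 to 0.038 for HLA-C, -0.0075 to 0.047 for B2M and -0.096 to 0.0073 for PSMB8. The log2 ratio of PSMB8 to PSMB5 ranged from -0.091 to 0.029 in NLS Mut against vector and from -0.084 to 0.036 between the F-78 groups, and that of PSMB9 to PSMB6 from -0.15 to 0.016 in NLS Mut against vector.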

Other observations

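PSMB8-AS1, annotated antisense to PSMB8 and TAP1, had 0 reads in all 9 libraries in the unstranded column and 447 to 824 in the sum of the strand columns. In that sum TAP1 had 122% and PSMB8 113% of their unstranded counts, while HLA-B had 102% and HLA-C, HLA-E, B2M, TAPBP and PSMB9 at most 100.3%. Whether the libraries keep strand was not tested. The unstranded counts used here do not assign reads on bases shared by PSMB8-AS1 and the genes it overlaps.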
